A study of Mus musculus with 12 samples.

Results

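The miR-106b-25 and miR-106a-363 clusters are paralogs of the miR-17-92 cluster, and 6 of their mature miRNAs could be followed in a table of cycle thresholds (CT): miR-106b, miR-106b*, miR-93 and miR-25 from the first cluster, and miR-106a and miR-20b from the second. The members are listed by name with no limit on their values, though the clusters were picked with earlier results of these data known, and they are 6 of the 269 assays that could be named among the 593 numbered assays of the table. The cells were sorted from the bone marrow of C57BL/6 mice at 4 stages, namely LSK (the Lin- Sca1+ cKit+ stem and progenitor population) and then promyelocytes, myelocytes and mature granulocytes, which carried no transgene or treatment that the labels give. From each stage whole cell, cytoplasmic and nuclear RNA was assayed once, on TaqMan rodent miRNA cards A and B with 100 ng of RNA per sample, which makes 12 samples with 1 sample per stage and fraction. No replicate error, test or p-value can therefore be given, and a difference was counted as large where it reached 2-fold. The age and number of the mice are not given in the sources used here.

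A miRNA gene is transcribed as part of a longer RNA, which is cut in the nucleus to a hairpin and in the cytoplasm to a short duplex. One strand of the duplex is loaded into an Argonaute protein and pairs with target mRNAs through its seed, and the other strand, marked by an asterisk in the older naming used here, is mostly degraded. The miR-17 family is known for promoting the cell cycle, in part through repression of the cyclin-dependent kinase inhibitor Cdkn1a, and miR-25 and miR-92a belong to a separate seed family with the pro-apoptotic Bcl2l11 among its known targets. In bone marrow, promyelocytes and myelocytes still divide while granulocytes have left the cell cycle.

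The sequences show why the members are set beside each other. All 6 mature sequences were matched in RefSeq (GRCm38.p6), and bases 2 to 8, the seed, are in capitals. Of the 6 members, 4 share 1 seed with miR-17 and miR-20a of the miR-17-92 cluster.
miR-106b: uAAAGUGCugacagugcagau
miR-93: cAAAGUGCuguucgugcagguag
miR-106a: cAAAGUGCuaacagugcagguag
miR-20b: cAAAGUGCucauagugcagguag
miR-17: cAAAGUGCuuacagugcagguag
miR-20a: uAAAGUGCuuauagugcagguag
Counted from 1 at the 5′ end, miR-106a differed from miR-17 at 1 of 23 positions (U10A), and miR-20b differed from miR-17 at 2 (U10C and C12U). Over the 23 positions miR-93 differed from miR-17 at 4 (U10G, A11U, C12U and A13C). Over the 21 positions of miR-106b, that miRNA differed from miR-17 at 3 (C1U, U10G and G20A). The seed of miR-25 is that of miR-92a, from which miR-25 differed at 3 of 21 positions (U1C, C14U and C18U), and that of miR-363, for which no assay of the table was named.
miR-25: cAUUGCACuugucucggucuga
miR-92a: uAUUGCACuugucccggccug
miR-363: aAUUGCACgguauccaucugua
The opposite strands of 2 hairpins were also named, miR-106b* as a member and miR-93* as a relative, and their seeds match neither family.
miR-106b*: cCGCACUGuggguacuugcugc
miR-93*: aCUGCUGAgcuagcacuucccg

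In RefSeq the hairpins Mir106b (chr5:138165737-138165818), Mir93 (chr5:138165523-138165610) and Mir25 (chr5:138165321-138165404) lie on the minus strand in a stretch of 498 bases, and all 3 are inside the span of Mcm7, which encodes a subunit of the replicative helicase. The second cluster holds 6 hairpins in 875 bases of the minus strand of chromosome X, from Mir106a (chrX:52742503-52742567) over Mir18b, Mir20b (chrX:52742113-52742192), Mir19b-2 and Mir92-2 to Mir363 (chrX:52741693-52741767). Its miR-19b and miR-92a have mature forms that the miR-17-92 cluster on chromosome 14 also encodes, so their assays cannot be given to 1 cluster, and miR-18b was not named. The CT table names assays and not loci, and it gives no genome build.

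A CT is the cycle at which the fluorescence of a reaction crosses a threshold, so 1 cycle less stands for up to 2-fold more template. CTs of different assays depend on each assay's efficiency, and for that reason changes of an assay between samples are compared here, not the levels of different miRNAs. Wells without a signal were recorded as 40, and a CT under 30 was taken as reliable, as in the methods of the study. Between 199 and 294 of the 593 assays gave a CT under 40 in a sample, with the lowest numbers in nuclear RNA. The labelled stages showed their markers: miR-126-3p, miR-125b-5p, miR-125a-5p and miR-130a, known from stem and progenitor cells, had their lowest CT in LSK in all 3 fractions, and miR-223, the granulocytic miRNA, went from a CT of 23.98 in LSK to 16.43 in granulocytes in whole cell RNA. In bulk samples such as these, a change in the mixture of cells and a change per cell cannot be told apart.

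In whole cell RNA the 4 members from Mcm7 were higher in later stages. miR-93, the seed family member of that cluster with the largest change, had a CT of 26.23 in LSK and then, stage by stage, 23.92 (promyelocytes), 23.10 (myelocytes) and 22.92 (granulocytes). miR-106b had CTs of 26.64, 26.31, 25.11 and 24.78 in the same order, which is used for all lists of 4 values. miR-25 had CTs of 29.36, 27.70, 26.96 and 26.68. For these 3 guide strands every later stage had a lower CT than the stage before it, but miR-93 and miR-25 changed mostly between LSK and promyelocytes, whereas miR-106b changed mostly between promyelocytes and myelocytes. miR-106b*, the strand opposite to miR-106b, had CTs of 33.21, 29.13, 27.33 and 27.64, so its LSK value lay above the limit of 30 and the size of its first step is poorly determined.

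The members on chromosome X behaved differently in the same whole cell samples. miR-106a had CTs of 23.12, 21.93, 22.64 and 22.66 from LSK to granulocytes. miR-20b had CTs of 27.62, 27.20, 28.55 and 28.33. Both had their lowest CT in promyelocytes and a higher CT in the 2 later stages.

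**Figure D1:**
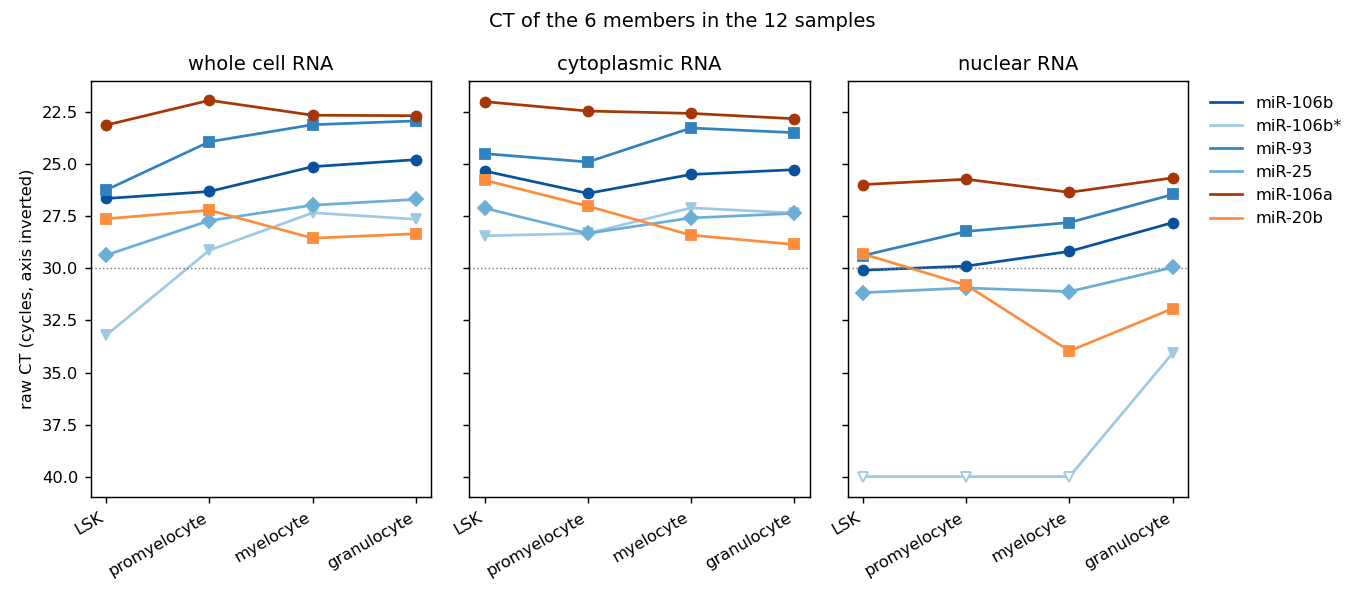
Raw CT (cycles, inverted axis, so that more template is higher) of the 6 members at each stage, in whole cell, cytoplasmic and nuclear RNA; each point is 1 sample, open symbols are wells recorded as 40 and the dotted line marks a CT of 30. Blue lines are the miR-106b-25 members and orange lines are miR-106a and miR-20b, and in each panel miR-20b is lower in granulocytes than in LSK while miR-93 is higher.

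Whole cell changes were scaled by the mean of 3 control assays at the end of card B, and are given as log2 values at 2-fold per cycle, which is not the unit of the study's printed whole cell comparison. From LSK to granulocytes miR-93 was higher by 2.64, miR-25 by 2.0 and miR-106b by 1.19. Over the same step miR-106b* was higher by 4.90, which rests on its late LSK value. miR-106a differed by -0.22 and miR-20b by -1.39. Thus 4 of the 6 members were at least 2-fold higher in granulocytes, all from the Mcm7 cluster, and 1, miR-20b, was at least 2-fold lower. Without miR-106b*, the members at least 2-fold higher were miR-93, miR-25 and miR-106b. Scaled instead by the mean CT of the assays under 30 in all 4 samples, miR-106b dropped under the limit (0.35), which left 3 of the 4 higher, and miR-106a passed it (-1.06). Unscaled, miR-20b was under the limit (-0.72).

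These counts need the background, since most miRNAs were higher in granulocytes. The background was every named assay whose CT in whole cell RNA was under 30 at 1 stage or more, 129 assays that included all 6 members, miR-106b* through its later stages only. Of those 129, 54.3% were at least 2-fold higher in granulocytes than in LSK and 17.1% were at least 2-fold lower, and their median change was 1.30. The members' median was 1.59 with miR-106b*, and without it the middle member was miR-106b at 1.19. The filter favoured a large change of miR-106b*, which passed it only through the later stages where it was high. Nothing is read from its place beside the background. Higher values in granulocytes, as in the miR-106b-25 members, were therefore what most assays showed, with 47.3% of the background below miR-106b, 63.6% below miR-25 and 72.1% below miR-93. miR-20b stood at the other end, with 10.9% of the background below it, and miR-106a had 26.4% below it. Whole cell values of all 140 assays with a CT under 30, named or not, gave similar shares, with 50% higher and 17.1% lower.

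The clusters parted between promyelocytes and myelocytes. In whole cell RNA all 4 miR-106b-25 members were higher in myelocytes, by 0.75 for miR-25, 0.83 for miR-93, 1.20 for miR-106b and 1.81 for miR-106b*. Both chromosome X members were lower, by -0.70 for miR-106a and -1.33 for miR-20b. At the 2-fold limit 2 members were higher (miR-106b and miR-106b*) and 1 was lower (miR-20b). The background shares were 42.6% higher and 13.2% lower, with a median change of 0.75, which was the value of miR-25. Scaled by the mean of the assays the directions were the same, but miR-106b was under the limit (0.69) and miR-106a past it (-1.22).

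From LSK to promyelocytes, with the card B controls as the scale, all 6 members were higher in whole cell RNA, 3 of them by at least 2-fold: miR-106b* (3.83), miR-93 (2.07) and miR-25 (1.41). The background share was 34.9% higher and 19.4% lower. As miR-106b* entered that background only through its later stages, the filter favoured its change, and without it the members past 2-fold were miR-93 and miR-25. miR-106a was higher by 0.94, miR-20b by 0.17 and miR-106b by 0.09, and the last 2 turned to -0.17 and -0.25 with the mean of the assays as the scale. From myelocytes to granulocytes the 6 members were slightly lower after scaling, by between -0.75 and -0.10, and none reached 2-fold, against 10.1% of the background higher and 9.3% lower. Unscaled, miR-106b (0.34), miR-93 (0.18), miR-25 (0.28) and miR-20b (0.21) turned positive, so the direction of these 4 depends on the scale.

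Cytoplasmic RNA was prepared by fractionation and gave a second set of samples over the same stages. miR-93 had cytoplasmic CTs of 24.49, 24.89, 23.26 and 23.48 from LSK to granulocytes. miR-20b had CTs of 25.76, 27.01, 28.40 and 28.85, a steady increase. miR-106a had CTs of 21.99, 22.44, 22.55 and 22.81, also increasing at each stage but over less than 1 cycle. The step from promyelocytes to myelocytes again separated the clusters.

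The other miR-106b-25 members followed miR-93 at that step. miR-106b had cytoplasmic CTs of 25.32, 26.40, 25.49 and 25.26, miR-25 of 27.10, 28.32, 27.57 and 27.36, and miR-106b* of 28.43, 28.32, 27.09 and 27.34. On raw CT, all 4 were higher in myelocytes than in promyelocytes, by 0.91 for miR-106b, 1.22 for miR-106b*, 1.63 for miR-93 and 0.75 for miR-25. miR-106a differed by -0.11 and miR-20b by -1.39. At the 2-fold limit, 2 members were higher (miR-93 and miR-106b*) and 1 was lower (miR-20b), where 50% of the 128 background assays were higher and 10.2% lower. The median of those assays was 0.99, and 6.25% of them were below miR-20b. With the card B controls as the scale the 4 miR-106b-25 members turned negative, at -0.77 for miR-106b, -0.45 for miR-106b*, -0.042 for miR-93 and -0.93 for miR-25, and with the mean of the assays miR-106b (-0.15) and miR-25 (-0.31) did. miR-20b was lower under both, at -3.07 and -2.45.

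From LSK to granulocytes the cytoplasmic change was 1.01 for miR-93, 1.09 for miR-106b*, 0.06 for miR-106b and -0.25 for miR-25, and it was -0.82 for miR-106a and -3.09 for miR-20b. So 2 members were at least 2-fold higher and 1 lower, beside background shares of 33.6% and 34.4%. miR-20b was 3.09 cycles later in granulocytes, with 12.5% of the background below it. From LSK to promyelocytes 3 members were at least 2-fold lower (miR-106b, miR-25 and miR-20b) and 0 higher, where 60.9% of the background was lower and 7.81% higher, and with the card B controls these 3 turned positive (0.78, 0.64 and 0.61). With the 3 card B controls as the scale, the cytoplasmic changes of miR-106b, miR-106b* and miR-93 from LSK to granulocytes turned negative (-1.35, -0.32 and -0.41). The mean CT of these controls in the cytoplasmic samples was 24.34, 26.19, 24.52 and 22.93 from LSK to granulocytes, so the choice of scale sets the direction of these members there. In nuclear RNA their mean CT was 20.75, 20.51, 21.92 and 21.90, lower than in the cytoplasm at every stage. How far these controls follow RNA input in the cytoplasmic samples was not tested.

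Nuclear CTs were later for every member at every stage. miR-106b was at 30.08, 29.89, 29.18 and 27.80 from LSK to granulocytes. miR-93 was at 29.38, 28.22, 27.80 and 26.45, and miR-25 at 31.16, 30.94, 31.11 and 29.95. These 3 guide strands had their lowest nuclear CT in granulocytes, as did miR-106a and miR-17. From myelocytes to granulocytes their nuclear changes of 1.38, 1.35 and 1.16 were near the median of the background assays (1.34). The miR-25 values before granulocytes and the LSK value of miR-106b lay above the limit of 30.

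On the chromosome X side, miR-106a was at 25.97, 25.72, 26.35 and 25.65 in nuclear RNA. miR-20b was at 29.30, 30.80, 33.97 and 31.93, so its last 3 values lay above the limit of 30. miR-106b* was recorded as 40 in nuclear RNA of LSK, promyelocytes and myelocytes and had a CT of 34.07 in granulocytes, which leaves 5 of the 6 members among the 66 nuclear background assays. From promyelocytes to myelocytes the nuclear change was 0.71 for miR-106b, 0.42 for miR-93, -0.17 for miR-25, -0.63 for miR-106a and -3.16 for miR-20b. On raw CT only miR-20b passed 2-fold, where 33.3% of the background was higher and 28.8% lower, and with the card B controls miR-25 (1.23) and miR-106a (0.78) turned positive. From LSK to granulocytes miR-93 (2.93), miR-106b (2.28) and miR-25 (1.21) were at least 2-fold higher, miR-106a differed by 0.32, and miR-20b was lower (-2.63), where 57.6% of the background was higher and 13.6% lower. With the mean of the assays as the scale miR-25 (-0.052) and miR-106a (-0.94) turned negative. miR-25 entered the nuclear background through its granulocyte value alone and miR-20b through its LSK value alone, in each case the end of this step where it was high, so for these 2 the filter favoured a large change and nothing is read from their place beside the background shares.

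**Figure D2:**
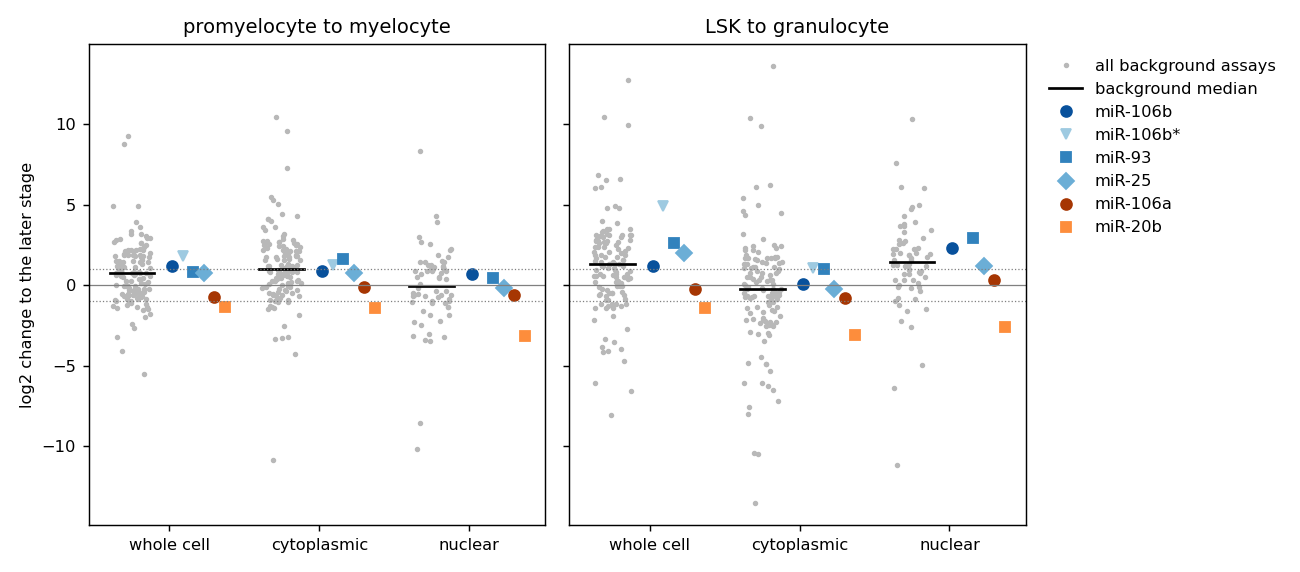
Log2 change of the members (coloured symbols) from promyelocytes to myelocytes and from LSK to granulocytes, beside all background assays of the fraction (grey points; black bars are their medians), with dotted lines at 2-fold; whole cell values are scaled by 3 control assays and the others are raw CT differences, and miR-106b* is left out of the nuclear columns. miR-20b lies below -1 in all 6 columns, and the miR-106b-25 members lie near or above the median in the whole cell columns.

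A comparison that needs no scaling is the difference between the clusters within a sample. The mean CT of miR-106a and miR-20b minus the mean CT of miR-106b, miR-93 and miR-25 was taken in every sample, leaving out miR-106b* because it is the opposite strand of a hairpin already counted. In whole cell RNA this difference was -2.04, -1.41, 0.54 and 0.71 cycles from LSK to granulocytes. In cytoplasmic RNA it was -1.76, -1.81, 0.04 and 0.47. In nuclear RNA it was -2.57, -1.42, 0.79 and 0.72. The sign itself carries no meaning, as it depends on the efficiency of the assays, but in all 3 fractions the LSK and promyelocyte values lay below the myelocyte and granulocyte values with no overlap. How often other sets of assays do so was not counted.

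The shift between promyelocytes and myelocytes was 1.95 cycles in whole cell, 1.85 in cytoplasmic and 2.22 in nuclear RNA, which corresponds to 3.86-, 3.60- and 4.64-fold less miR-106a and miR-20b relative to the miR-106b-25 guides. In the same order the median background change was 0.75, 0.99 and -0.04 (whole cell scaled, others raw). The median of miR-106a and miR-20b was -1.02, -0.75 and -1.90. Much of the shift was therefore also present relative to a typical assay, so it is not particular to the pairing of these clusters. In each fraction all 6 pairs of 1 miRNA from each cluster moved toward less of the chromosome X member. The pairs share miRNAs and samples, so they are not separate observations, and the share over pairs of background assays was not taken. The smallest pair change was that of miR-25 and miR-106a in all 3 fractions, 1.46 in whole cell, 0.86 in cytoplasmic and 0.45 in nuclear RNA. The largest was 2.54 in whole cell and 3.87 in nuclear RNA, both for miR-106b and miR-20b, and 3.03 in cytoplasmic RNA for miR-93 and miR-20b. Without miR-20b the shift was 1.63 in whole cell, 1.21 in cytoplasmic and 0.95 in nuclear RNA, so it was smaller but in the same direction.

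The neighbouring steps were less uniform. From LSK to promyelocytes the cluster difference changed by 0.63 in whole cell, -0.05 in cytoplasmic and 1.15 in nuclear RNA, and 4 of 6 pairs moved up in each fraction. From myelocytes to granulocytes it changed by 0.17, 0.43 and -0.07. Over the whole course from LSK to granulocytes the change was 2.75, 2.23 and 3.30 cycles, or 6.74-, 4.68- and 9.82-fold. Without miR-20b it was 2.17, 1.09 and 1.82, so miR-20b accounted for much of the cytoplasmic and nuclear change.

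**Figure D3:**
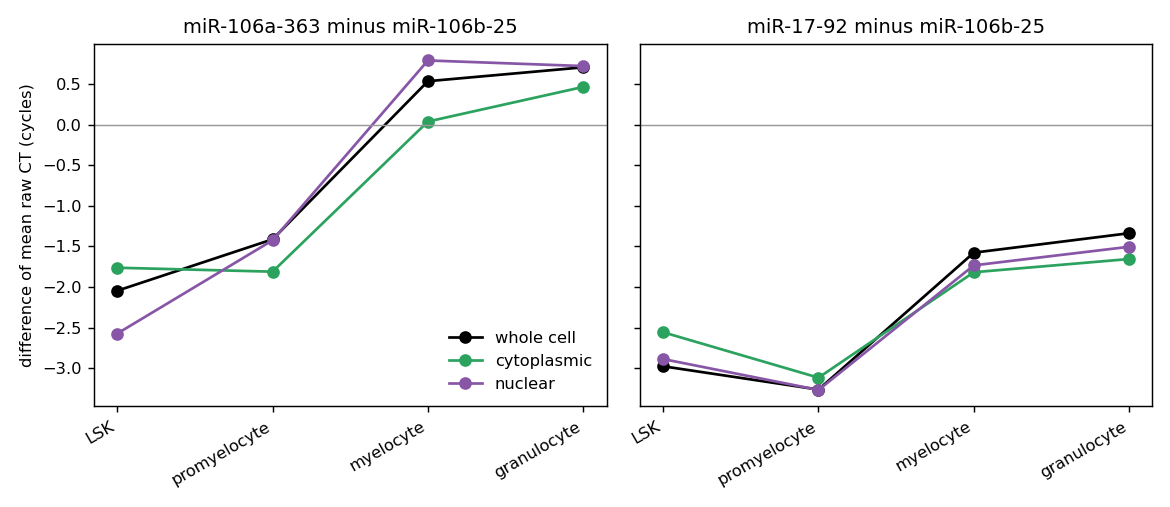
Mean raw CT of miR-106a and miR-20b (left) or of 6 miR-17-92 miRNAs (right) minus that of miR-106b, miR-93 and miR-25, in cycles, by stage and fraction; each point is 1 sample. All 3 lines of both panels go up between promyelocytes and myelocytes, by 1.85 to 2.22 cycles on the left and 1.30 to 1.69 on the right.

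The third paralog, miR-17-92, was set beside the same guides through miR-17, miR-18a, miR-19a, miR-20a, miR-19b and miR-92a, of which miR-19b and miR-92a may also be read from the chromosome X cluster. Their mean CT minus that of the miR-106b-25 guides changed by 1.69 cycles in whole cell, 1.30 in cytoplasmic and 1.53 in nuclear RNA between promyelocytes and myelocytes. In whole cell RNA all 6 of these miRNAs were lower in myelocytes than in promyelocytes, by between -0.95 and -0.42. On raw CT, in cytoplasmic RNA 4 of the 6 were lower and 2 higher, with a median of -0.21, and in nuclear RNA all 6 were lower, with a median of -1.20. The card B controls would add 1.41 to the nuclear values, which turns this median positive. miR-20b, at -1.39 and -3.16 on raw CT, lay below both medians.

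miR-106a moved less against miR-17, from which it differs at 1 base, than miR-17 moved itself. The CT of miR-106a minus that of miR-17 was 0.91, 1.03, 0.78 and 1.09 in whole cell RNA from LSK to granulocytes. It was 0.97, 0.98, 0.77 and 0.92 in cytoplasmic RNA and 0.81, 1.22, 0.77 and 1.40 in nuclear RNA. Across the stages the gap spanned 0.31 cycles in whole cell, 0.21 in cytoplasmic and 0.64 in nuclear RNA, while the CT of miR-17 itself spanned 1.31, 0.87 and 1.33. Whether the miR-106a assay also reads miR-17 was not tested.

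miR-20b, encoded in the same 875 bases as miR-106a, did not keep such a distance. Its CT minus that of miR-106a was 4.50, 5.28, 5.90 and 5.67 from LSK to granulocytes in whole cell RNA. In cytoplasmic RNA it was 3.77, 4.57, 5.85 and 6.04, and in nuclear RNA 3.33, 5.09, 7.62 and 6.28. The gap spanned 1.40 cycles in whole cell and 2.27 in cytoplasmic RNA, and it was smallest in LSK in every fraction. Its nuclear span of 4.29 rests on miR-20b values above the limit of 30. Against miR-20a, which differs from miR-20b at 2 of 23 positions (U1C and U10C), the gap of miR-20b spanned 2.48 cycles in whole cell and 2.42 in cytoplasmic RNA.

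The seed relatives miR-25 and miR-92a also drew together. The CT of miR-92a minus that of miR-25 was -5.87, -4.49, -2.84 and -2.72 from LSK to granulocytes in whole cell RNA. It was -4.75, -4.68, -3.41 and -2.99 in cytoplasmic RNA and -5.11, -4.62, -4.29 and -3.51 in nuclear RNA. In each fraction every later stage had less miR-92a relative to miR-25 than the stage before.

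**Figure D4:**
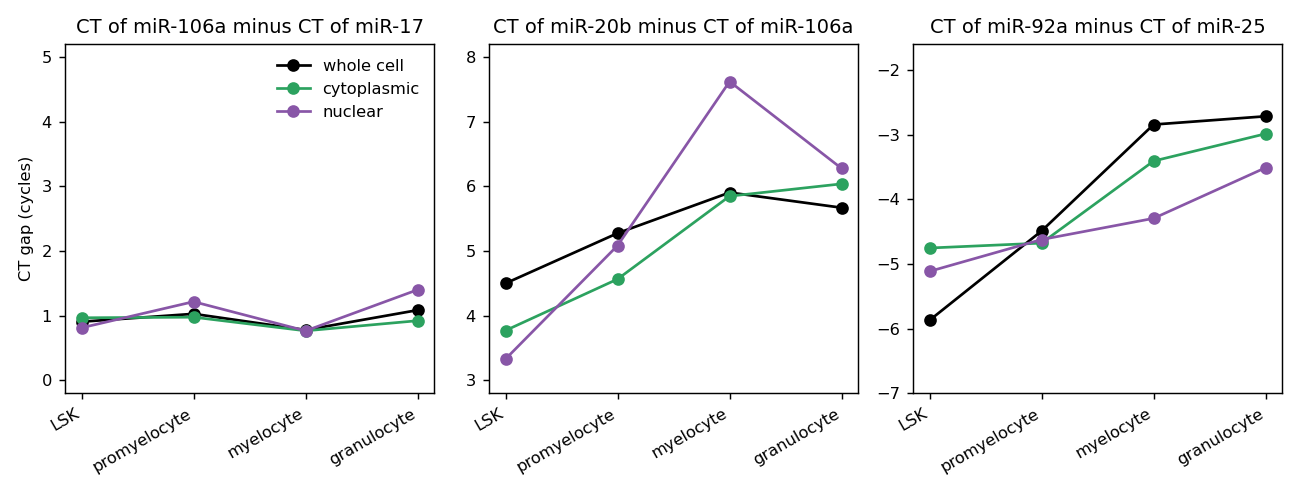
CT gap in cycles between miR-106a and miR-17, between miR-20b and miR-106a, and between miR-92a and miR-25, by stage and fraction; each point is 1 sample and the 3 vertical axes span the same number of cycles. The first gap stays between 0.77 and 1.40, whereas the second widens and the third narrows from LSK to granulocytes in all 3 fractions.

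Within the Mcm7 cluster the guides were not parallel either, although they lie in 1 host gene. The CT of miR-93 minus that of miR-106b was -0.41, -2.39, -2.01 and -1.86 from LSK to granulocytes in whole cell RNA. It was -0.84, -1.51, -2.23 and -1.78 in cytoplasmic RNA and -0.70, -1.67, -1.39 and -1.35 in nuclear RNA. miR-93 was thus higher relative to miR-106b in the 3 later stages than in LSK in each fraction. miR-25 and miR-106b kept a gap of 1.78 to 2.10 cycles in cytoplasmic RNA, but of 1.40 to 2.72 in whole cell and 1.05 to 2.15 in nuclear RNA.

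The strands of the 2 hairpins with both arms named shifted in opposite directions. miR-106b* had a CT above that of miR-106b by 6.57, 2.82, 2.22 and 2.86 from LSK to granulocytes in whole cell RNA. The cytoplasmic gaps were 3.11, 1.92, 1.60 and 2.08, so the opposite strand was closer to the guide in the later stages. miR-93* was above miR-93 by 0.28, 2.27, 2.60 and 2.44 cycles in whole cell RNA, by 0.94, 1.56, 2.41 and 2.71 in cytoplasmic RNA and by 0.42, 2.66, 2.57 and 2.54 in nuclear RNA. For that hairpin the guide gained on the opposite strand after LSK in all 3 fractions. Both starred assays are on card B and both guides on card A, so strand and card cannot be told apart within a pair.

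Likeness to other assays was measured as the root mean square distance between profiles over the 4 whole cell and 4 cytoplasmic samples, each centred within its fraction, among assays under a CT of 35 in all 8. Each member was compared with 137 others. miR-106a was nearest to miR-17 (0.10 cycles), then to miR-877* (0.23) and miR-19b (0.23), where the median distance was 0.94. miR-20b was nearest to miR-101a (0.27), miR-130b* (0.33) and miR-378 (0.33), and miR-106a came 18th at 0.76. The distance between the chromosome X members was larger than that of miR-106a to miR-17, miR-19b, miR-20a, miR-19a and miR-92a, and smaller than its distance to miR-18a (0.79).

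miR-106b was nearest to miR-425 (0.14), miR-30e* (0.16) and miR-24 (0.27), and miR-25 came 10th at 0.35. miR-25 was nearest to miR-106b (0.35), let-7g (0.35) and miR-148a (0.36), and miR-93 came 12th at 0.49. miR-93 was nearest to miR-27a (0.26), miR-148a (0.30) and miR-15b* (0.31). miR-106b* was nearest to miR-142-3p (0.57), miR-185 (0.61) and miR-27a (0.72), and its own guide came 40th at 1.28. Over these 8 samples miR-25 had a miRNA of its own cluster among its 3 nearest assays, and so did miR-106a if miR-19b, which both chromosomes encode, is counted. miR-106b was not among the 3 nearest of miR-25 over all 12 samples (4th) or the 4 whole cell samples (16th). The profiles share samples and RNA input, so these distances are descriptions.

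The nuclear to cytoplasmic ratio was taken as 2 to the power of the cytoplasmic minus the nuclear CT, divided by 3. The study's printed ratios contain this divisor, and its text does not give the reason. The ratio was under 0.1 for each of 5 members (miR-106b, miR-93, miR-25, miR-106a and miR-20b) at each stage. Over these 5 it ranged from 0.0112 to 0.0286 in LSK and from 0.0240 to 0.0543 in promyelocytes. In myelocytes the range was 0.00705 to 0.0287 and in granulocytes 0.0395 to 0.0572. All 20 values were thus under 0.1. The level of this ratio differed between stages in the control assays below, so it is not an absolute measure of location. A ratio under 0.1 was also the rule in the background of named assays with a nuclear CT under 30, of which 84.4%, 72.5%, 86.5% and 89.5% were under 0.1 from LSK to granulocytes.

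The spread within a stage lay in named members. In LSK miR-93 (0.0112) and miR-106b (0.0123) were lowest, below a background median of 0.0213, and miR-20b (0.0286) was above it. In myelocytes miR-20b had a ratio of 0.00705, below every background assay, but its nuclear CT was 33.97 and it was not itself in the background there. In granulocytes miR-106b (0.0572) and miR-25 (0.0551) were near the median of 0.0568, and miR-20b was at 0.0395. miR-106b* had a nuclear signal only in granulocytes, with a ratio of 0.00315.

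The fraction controls differed between stages, and their values stand beside the ratios. These were 5 unnamed assays of unknown identity, chosen for more signal in nuclear RNA at every stage and a CT under 30 in all 12 samples. Their median cytoplasmic minus nuclear CT was 3.25, 6.18, 2.96 and 1.01 from LSK to granulocytes. By the formula used for the members, their median ratio was 3.17, 24.2, 2.59 and 0.670. The part of these differences in the members' ratios was not tested.

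**Figure D5:**
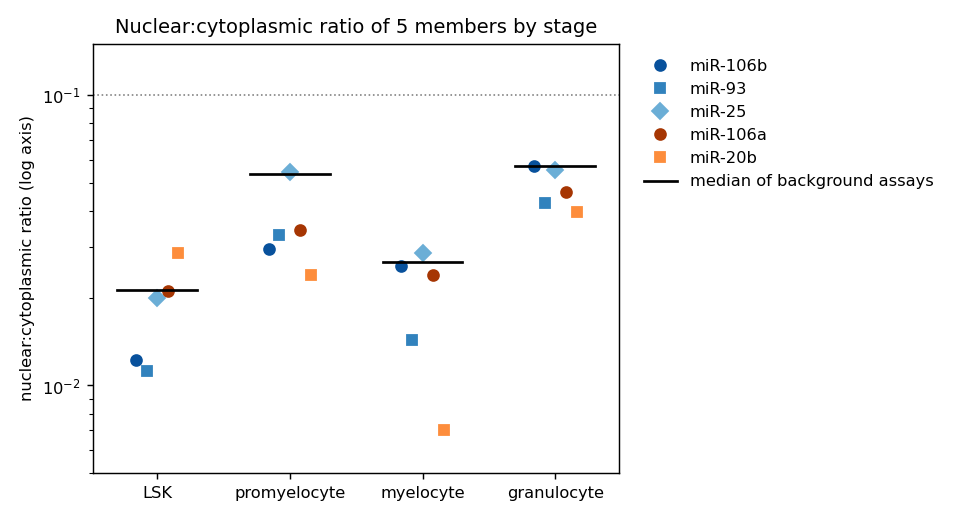
Nuclear:cytoplasmic ratio (log axis) of 5 members at the 4 stages, each point from 1 nuclear and 1 cytoplasmic sample, with black bars for the median of the background assays and a dotted line at 0.1. Every point lies below 0.1, and the lowest is miR-20b in myelocytes at 0.00705.

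Since no sample was repeated, the changes seen in the 2 RNA preparations are set side by side. Over 121 assays under a CT of 30 in both, the raw change from promyelocytes to myelocytes in whole cell minus that in cytoplasmic RNA had a median of -0.52 and a median absolute deviation from it of 0.41 cycles. For the members this difference was 0.28 for miR-106b, 0.58 for miR-106b*, -0.82 for miR-93, 0.00 for miR-25, -0.60 for miR-106a and 0.05 for miR-20b. These differences do not measure the spread between separate samples of a stage.

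The step from LSK to promyelocytes was less stable. The median of the 121 assays was 0.63 in whole cell and -1.23 in cytoplasmic RNA on raw CT, and 62.0% of them changed in opposite directions. All members but miR-106b* did so, as miR-93 was higher by 2.32 in whole cell and differed by -0.40 in cytoplasmic RNA, and miR-25 by 1.66 and -1.22. On raw CT no direction that held in both preparations can therefore be given for these 5 members at this step. With the card B controls as the scale in both, all 5 were higher in promyelocytes, and with the mean of the assays miR-93 and miR-106a were higher in both, so the direction depends on the scale.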

How the data were processed

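The deposited table held raw CT values, which the authors obtained with TaqMan rodent miRNA cards A and B on an ABI 7900HT instrument from whole cell RNA and from fractions made with the PARIS kit, with wells without signal at 40. Its unit was cycles, with no normalization by the authors, and all 12 columns were used. Assays are numbered in the table. They were named where their cytoplasmic and nuclear CTs matched the study's printed values for 1 miRNA within 0.0005 cycles (246 assays), or else where the whole cell differences matched (23 assays), and a name printed more than once was not used. The printed whole cell differences have the stage constants of the 3 control assays used here but are 1.71 times the log2 values at 2-fold per cycle. Printed values served for naming only.

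Whole cell changes were scaled by the mean CT of 3 control assays of card B. Other changes are raw differences, at 2-fold per cycle. As background served every named assay whose CT was under 30 at 1 stage or more of the fraction. The text names the 6 members, the listed relatives and markers, and the 3 assays nearest to each member. The members, though listed by name, and the lists were chosen with earlier results of these data known. With 1 sample per group no test was made. Other scalings, 1.9-fold per cycle, undetermined wells at 35, fold limits of 1.5 and 3, CT limits of 28, 32 and 35 and other cluster members were tried. Calculations used Python 3.11.15, numpy 2.4.6 and pandas 2.3.3. The code for the calls and the naming was run on simulated or shuffled data, which checks the code and not the spread between samples. Software settings for the CT threshold are not given in the sources used here.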

Additional observations from a re-analysis of the deposited data

Results flagged for a closer look

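On raw CT, 5 members changed in opposite directions in whole cell and cytoplasmic RNA with at least 2-fold between the changes, and with 1 sample per group the difference was not tested. From LSK to promyelocytes the whole cell log2 change exceeded the cytoplasmic one by 1.41 for miR-106b, 2.72 for miR-93, 2.87 for miR-25, 1.64 for miR-106a and 1.66 for miR-20b. From LSK to myelocytes it did so by 1.69 for miR-106b, 2.87 for miR-25 and 1.04 for miR-106a. From LSK to granulocytes it did so by 2.93 for miR-25 and 1.27 for miR-106a. All 10 differences involve the LSK samples. Of 121 named assays, 62.0%, 33.1% and 28.9% changed in opposite directions at these 3 steps, whatever the size of the difference. Over the same assays the difference had a median of 1.85, 1.45 and 1.87 for the same 3 steps, with median absolute deviations of 0.56, 0.54 and 0.56, and miR-25 lay above the median at each step.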

How the results depend on the processing

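No paired analysis was possible because each stage and fraction has 1 sample. The shift between the clusters is free of scaling, and of its 42 alternative values 41 stayed at or above 1 cycle in the same direction, the exception being nuclear RNA from promyelocytes to myelocytes without miR-20b (0.95), a setting chosen after seeing the data. Counts of members past 2-fold are small and moved often. With the mean of the assays under a CT of 30 as the scale, the whole cell counts from promyelocytes to myelocytes became 1 higher and 2 lower, the cytoplasmic ones 0 and 2, and 2 members were lower from LSK to granulocytes in whole cells. Unscaled, 0 were lower there. With the card B controls, cytoplasmic counts from promyelocytes to myelocytes became 0 and 2, those from LSK to granulocytes 0 and 4, and 4 nuclear members were higher in myelocytes, one of them miR-106b*, which was at 40 in both samples so that its value is the scaling constant alone. A limit of 1.5-fold gave 4 higher and 2 lower in whole cells (background 54.3% and 23.3%) and 4 higher in cytoplasm (59.4%) from promyelocytes to myelocytes, 1 higher and 2 lower in nuclei (42.4% each), and 2 lower from LSK to granulocytes in cytoplasm (43.8%). A limit of 3-fold gave 1 higher and 0 lower from promyelocytes to myelocytes in whole cells (30.2% and 5.43%) and in cytoplasm (39.8% and 5.47%), and from LSK to granulocytes 0 lower in whole cells (10.1%) and 0 higher in cytoplasm (22.7%). At 1.9-fold per cycle 1 cytoplasmic member was higher in granulocytes. Without the division by 3, 13 of 20 nuclear ratios stayed under 0.1. Of 234 alternative values of single member changes, 183 kept direction and side of the limit, 13 changed sign or passed the limit in the other direction, and 13 more changed sign below the limit. With the card B controls the cytoplasmic change from LSK to promyelocytes became 0.78 for miR-106b, 1.45 for miR-93, 0.64 for miR-25, 1.40 for miR-106a and 0.61 for miR-20b, that from promyelocytes to myelocytes -0.45 for miR-106b*, -0.042 for miR-93, -0.77 for miR-106b and -0.93 for miR-25, that from LSK to granulocytes -1.35 for miR-106b, -0.32 for miR-106b* and -0.41 for miR-93, and the nuclear change from promyelocytes to myelocytes 1.23 for miR-25. With the mean of the assays as the scale, the cytoplasmic change of miR-106b from LSK to promyelocytes became 0.10 and the nuclear change of miR-25 from LSK to granulocytes -0.052. The cause was not tested. With the 4 whole cell samples alone the nearest assay changed for all members but miR-106b, to miR-149 for miR-106b*, miR-148a for miR-93 and miR-25, miR-18a* for miR-106a and miR-20a* for miR-20b. CTs above 30 limit the changes, ratios, gaps and cluster shifts that use them: those of miR-106b* in whole cell LSK and all nuclear samples, and in nuclear RNA those of miR-106b in LSK, of miR-25 in LSK, promyelocytes and myelocytes, and of miR-20b in all stages but LSK.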
